A study of Homo sapiens with 9 samples.

Results

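The 10 genes described here build, coat and break down lipid droplets or burn their fatty acids: PLIN2, PLIN3, HILPDA, DGAT1, DGAT2, PNPLA2, CPT1A, HADHA, ACADVL and FABP5. They were taken by gene symbol from the main-chromosome rows of a count table of 67928 genes, and all 10 were found. RNA-seq had been run on THP-1, a human line grown in suspension from an acute monocytic leukaemia, with total RNA taken after 48 h of treatment. There were 3 libraries from cells given solvent only (control), 3 from cells given 50 µmol/L lupeol (lupeol 50) and 3 from cells given 80 µmol/L (lupeol 80), and the labels name no genetic change in any group. Lupeol is a plant triterpene, and the stated aim was to detect transcript changes in treated THP-1 cells. Whether libraries of one group stem from separate cultures is not stated, so every p-value rests on library spread that may be technical only.

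Fatty acids that enter a cell are bound by carrier proteins and activated to acyl-CoA, and then take one of 2 routes. On the storage route they are joined to glycerol as triglyceride, which gathers in droplets coated by perilipins until lipases release the fatty acids again. On the burning route they pass into mitochondria through the carnitine shuttle and are shortened step by step by beta-oxidation. In monocytes and macrophages the droplet store is known for growing during lipid loading, when foam cells form.

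Each library held 26134744 to 38430299 counts, lupeol 80 replicate 1 being the deepest. The control columns are called 1, A and B, because 2 of them carried the same heading, the title of 1 control sample. Another control sample had no column of its name. Columns A and B are thus tied to no single sample, and both were taken as control. Libraries did not always lie nearest to their own group: control B lay closest to lupeol 50 replicate 1 (chi-square per degree of freedom 8.33, against 22.7 from control 1), and lupeol 80 replicates stood at 29.6 to 65.95 from each other. Of 10 monocyte markers, 9 averaged 1 CPM or more (a count relative to the library's total, after TMM scaling between libraries), and CD68 was the exception at 0.27 CPM. Their summed level was 1080 to 1164 CPM in control, 1008 to 1051 CPM at lupeol 50 and 881 to 1013 CPM at lupeol 80. Markers of T cells, erythroid cells, epithelium, adipocytes and hepatocytes summed to under 1 CPM in every library, with no count for EPCAM, ADIPOQ or APOB. Of the B-cell markers PAX5 averaged 41.0 CPM, while MS4A1 was at 0, and of the fibroblast markers PDGFRB averaged 1.63 CPM with COL1A2 and COL3A1 at 0. The 7 macrophage markers summed to 20.8 to 34.2 CPM in control, 21.3 to 26.6 CPM at lupeol 50 and 14.8 to 20.2 CPM at lupeol 80.

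The table's coordinates lie on GRCh38. Among the droplet coats, PLIN2 (ENSG00000147872.10) is on chromosome 9 at 19108375 to 19149290 and PLIN3 on chromosome 19 at 4838341 to 4867694, both on the minus strand. HILPDA is on chromosome 7 at 128455849 to 128458418. DGAT2, PNPLA2 and CPT1A share chromosome 11, HADHA is on chromosome 2 and ACADVL on chromosome 17. All 10 genes are protein-coding. The counting tool was not given in the sources used, so which parts of a gene its count covers is not known here.

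The RefSeq promoter table for GRCh38.p14 matched 6 of the 10 genes by symbol, with 7 start sites, and has no entry for HILPDA, DGAT1, DGAT2 and FABP5. The stretch of the PLIN2 promoter is shown because PLIN2 varied most of the 10 genes. It covers chr9:19127577-19127742 on the minus strand, bases 250 to 85 before the start site, and leaves out the last 84 bases, which lie in an exon of another PLIN2 transcript in GENCODE. Capitals mark the core ACGTG bound by hypoxia-inducible factors.
PLIN2: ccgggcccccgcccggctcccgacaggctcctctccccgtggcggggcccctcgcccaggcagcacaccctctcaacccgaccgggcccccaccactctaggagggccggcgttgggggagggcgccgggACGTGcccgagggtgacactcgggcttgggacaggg

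The core ACGTG was searched on both strands of the 250 bases before each start. PLIN2 held 3 matches, 1 at bases 120 to 116 in the stretch shown and 2 on opposite strands that overlap at bases 69 to 64, and 1 of the ACADVL windows held 1 match. That ACADVL window lies inside the gene, with all 250 bases in annotated exons of ACADVL or DLG4. The PLIN2 window also lies inside the span of its gene. The same core stands in 18.5% of the 35116 windows in the table. The direct repeat AGGTCANAGGTCA, bound by PPAR with RXR, was in none of the 7 windows and in 0.0171% of all windows. Its single hexamer AGGTCA was in 1 PNPLA2 window and in 12.1% of all, and the CEBP-ATF composite TTGCATCA was in none of the 7 and in 0.772% of all. The CCAAT box, added to the search later, had 1 match in PLIN3 and stands in 32.0% of all windows. These matches describe letters and not bound sites.

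Across the storage and the burning genes, none of the 10 was called in any comparison at an adjusted p under 0.05 by edgeR's quasi-likelihood test or by DESeq2. All 10 passed the filter on low counts, and the Benjamini-Hochberg adjustment ran over 17568 genes. At lupeol 50 against control the share of all genes called was 0.0% (12.4% at an unadjusted p under 0.05, and 1.24% called by DESeq2). At lupeol 80 against control it was 1.14% (DESeq2, 5.18%), at lupeol 80 against lupeol 50 it was 0.0455% (DESeq2, 2.5%), and in the test of any difference among the 3 groups it was 0.233%, where the adjusted p of the 10 genes ran from 0.25 (PLIN3) to 0.93 (HILPDA). PLIN2, the droplet coat, had the widest range, with its highest library 5.46 times its lowest, while the other 9 genes ran from 1.19 times (HADHA) to 1.61 times (PNPLA2). Less RNA per cell and fewer cells carrying a transcript cannot be told apart in these bulk libraries.

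**Figure D1:**
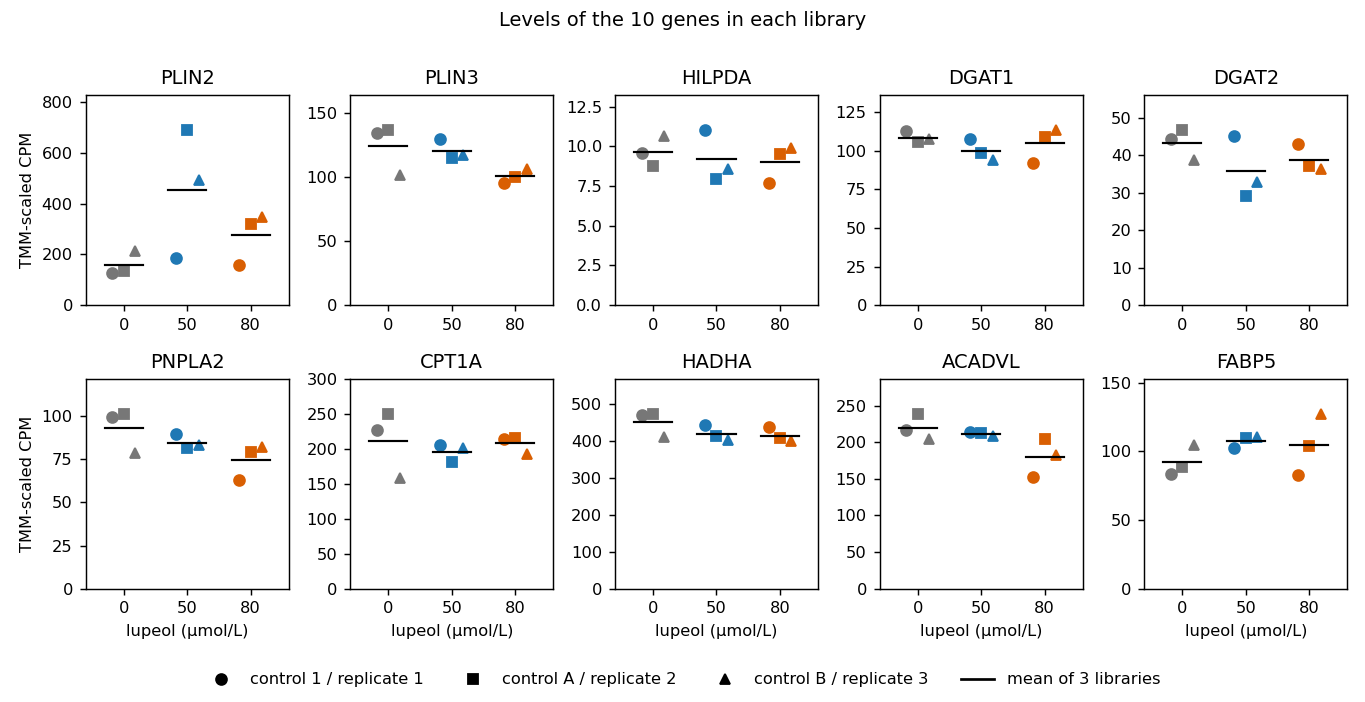
TMM-scaled CPM of the 10 genes (vertical axis, from 0) against lupeol dose in µmol/L (horizontal axis), with 1 point per library and a line at the mean of 3 libraries. Shapes only name the libraries and pair nothing across doses. PLIN2 reached 689 and 491 CPM in lupeol 50 replicates 2 and 3, against 126 to 214 CPM in control, and the groups of each gene overlap between either dose and control.

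PLIN2, the perilipin that coats droplets in most cell types and is stabilised by stored lipid, had 126, 136 and 214 CPM in control libraries 1, A and B. It had 184, 689 and 491 CPM in lupeol 50 replicates 1 to 3, and 159, 321 and 346 CPM in lupeol 80 replicates 1 to 3. Replicates 2 and 3 of either dose lay above every control, while replicate 1 of either dose lay below control B, so that the groups overlapped. At lupeol 50 PLIN2 averaged 455 ± 254 CPM, against 159 ± 47.9 CPM in control (SD, n = 3 each), a log2 fold change of 1.52 ± 0.55 (SE) with a 95% interval of 0.18 to 2.85. This did not pass edgeR's test over all genes (adjusted p = 0.36, unadjusted p = 0.032), nor DESeq2's (adjusted p = 0.088). At lupeol 80 it averaged 275 ± 101 CPM (SD, n = 3), a log2 fold change from control of 0.79 ± 0.54 with an interval of -0.52 to 2.11 (edgeR, adjusted p = 0.48). Lupeol 80 against lupeol 50 gave -0.72 ± 0.54 (edgeR, adjusted p = 0.58).

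Between 3320 and 18532 PLIN2 counts were read per library, so counting error was at most 1.74% of a level and the spread between libraries was far wider. Its log2 CPM had an SD of 0.85 over the 9 libraries, larger than in 99.4% of the 10779 genes that averaged 5 CPM or more. The SD within groups was 0.71, so much of the spread lay between libraries of 1 group. With a library left out, the log2 fold change at lupeol 50 ran from 1.09 without lupeol 50 replicate 2 (edgeR, adjusted p = 0.84) to 1.89 without lupeol 50 replicate 1 (adjusted p = 0.078). At lupeol 80 it ran from 0.60 without lupeol 80 replicate 3 to 1.07 without control B. Leaving out control B together with lupeol 50 replicate 1, a choice made after the levels had been seen and because these libraries lie closest to each other, gave 2.17 ± 0.37 at lupeol 50 (edgeR, adjusted p = 0.024). This was the only setting of 18 in which PLIN2 was called at lupeol 50, and 4.48% of all genes were called in it. Control B had the highest PLIN2 of the controls and replicate 1 the lowest of lupeol 50. Leaving both out therefore widened the difference by construction, and this p-value is no separate support.

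**Figure D2:**
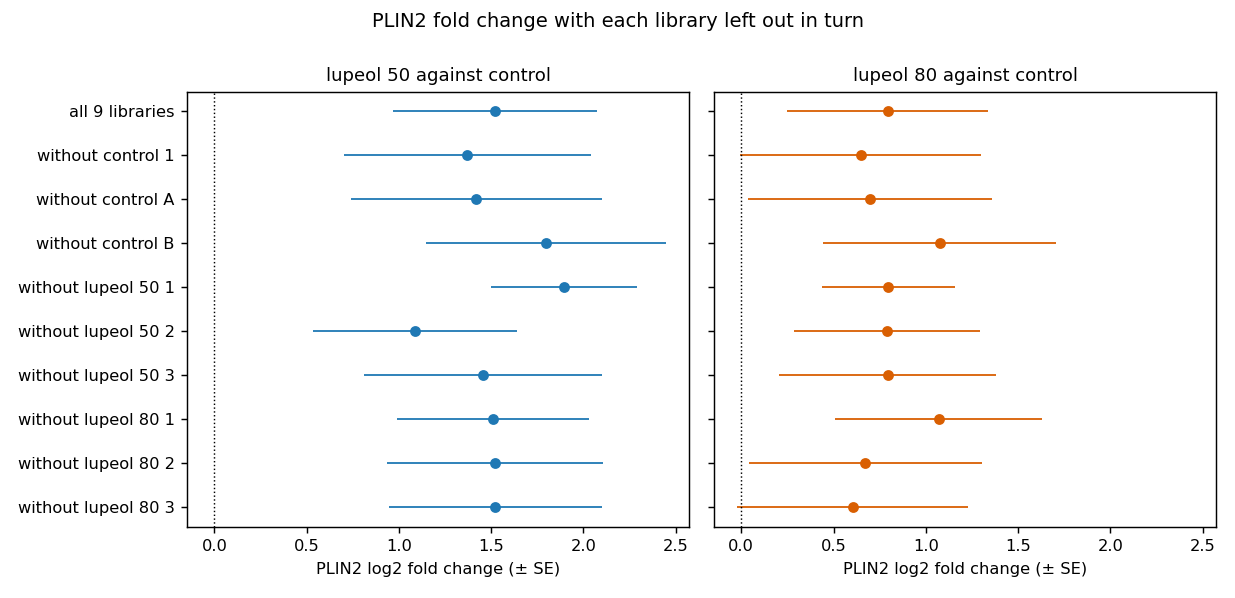
Log2 fold change of PLIN2 against control (horizontal axis, points with bars of ± 1 SE) in the fit of all 9 libraries and with each library left out (vertical axis), at lupeol 50 (left) and lupeol 80 (right). Every point lies above 0, between 1.09 and 1.89 at lupeol 50 and between 0.60 and 1.07 at lupeol 80.

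MSR1, a scavenger receptor that takes up modified lipoprotein and a listed macrophage marker, was high in the same lupeol 50 libraries as PLIN2. It had 2.72, 9.67 and 8.56 CPM in lupeol 50 replicates 1 to 3, and 1.64 to 3.17 CPM in the other groups. CD163 had 2.44, 4.09 and 5.12 CPM in those replicates, and 0.99 to 4.07 CPM in the other groups. MARCO, with 5.05, 2.42 and 2.93 CPM, and C1QA, with 2.99, 1.67 and 1.85 CPM, had the opposite order. The part of cell state in the PLIN2 levels was not tested.

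PLIN3, a perilipin that moves from the cytosol onto new droplets, had 134.5, 136 and 102 CPM in controls 1, A and B. It had 129, 114.5 and 117 CPM at lupeol 50 and 94.9, 100.2 and 106 CPM at lupeol 80. Lupeol 80 lay wholly below lupeol 50 but overlapped control B. At lupeol 80 its log2 fold change from control was -0.31 ± 0.12 with an interval of -0.57 to -0.05 (edgeR, adjusted p = 0.18, unadjusted p = 0.022), and against lupeol 50 it was -0.26 ± 0.12 (edgeR, adjusted p = 0.32). At lupeol 50 against control it was -0.05 ± 0.12 (edgeR, adjusted p = 0.92). With a library left out, the value at lupeol 80 ran from -0.43 without control B, the lowest control (edgeR, adjusted p = 0.076), to -0.23 without control A (adjusted p = 0.52).

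Per kilobase of the deposited gene length, PLIN2 stood at 0.51, 0.55 and 1.15 times PLIN3 in controls 1, A and B. The ratio was 0.78, 3.29 and 2.29 in lupeol 50 replicates 1 to 3 and 0.92, 1.75 and 1.79 in lupeol 80 replicates 1 to 3. PLIN2 was thus the more abundant coat per length in 5 of 9 libraries, namely control B and replicates 2 and 3 of either dose. This order depends on the deposited lengths, 5011 bases for PLIN2 and 2739 for PLIN3. In CPM, PLIN2 also lay above PLIN3 in lupeol 50 replicate 1 (184 against 129) and lupeol 80 replicate 1 (159 against 94.9). The antisense gene AC027319.1 overlaps 17.9% of PLIN3's exon bases and had no count.

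**Figure D3:**
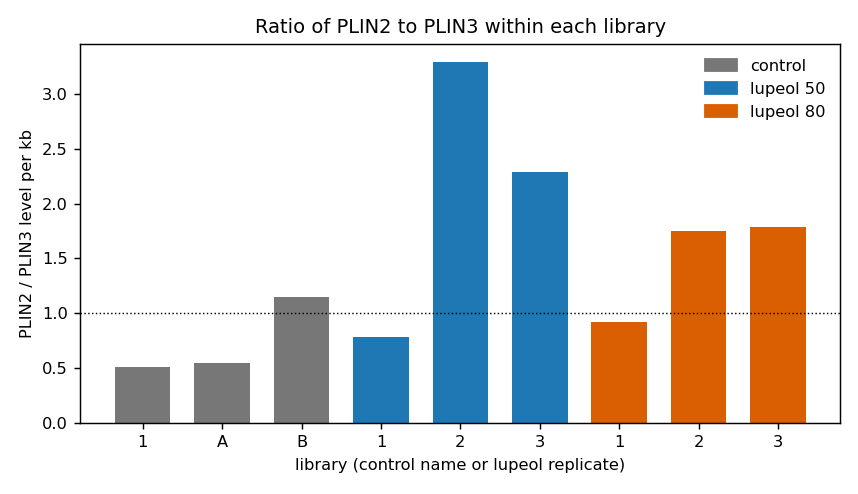
Ratio of PLIN2 to PLIN3 in CPM per kb (vertical axis, from 0) in each of the 9 libraries (horizontal axis, coloured by group), with a dotted line at 1. The ratio is 0.51 to 1.15 in control, 0.78 to 3.29 at lupeol 50 and 0.92 to 1.79 at lupeol 80.

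HILPDA, a hypoxia-induced droplet protein that inhibits the lipase PNPLA2, was the lowest of the 10 genes, with 8.79 to 10.7 CPM in control, 7.96 to 11.0 CPM at lupeol 50 and 7.69 to 9.90 CPM at lupeol 80. Its 214 to 321 counts per library carried a counting error of up to 6.84%. The log2 fold change was -0.07 ± 0.19 at lupeol 50 (edgeR, adjusted p = 0.91) and -0.10 ± 0.18 at lupeol 80 (edgeR, adjusted p = 0.80). Its direction between doses turned with single libraries.

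The final step of triglyceride synthesis is shared by DGAT1, an enzyme of the ER membrane, and DGAT2, an unrelated protein that also works at the droplet surface. DGAT1 was among the steadiest genes, with 106 to 113 CPM in control, 93.8 to 108 CPM at lupeol 50 and 91.9 to 113.5 CPM at lupeol 80. Its SD of log2 CPM, 0.11, was larger than that of only 8.11% of genes. DGAT2 had 44.5, 46.8 and 38.9 CPM in controls 1, A and B, 45.1, 29.2 and 32.9 CPM at lupeol 50, and 43.1, 37.2 and 36.4 CPM at lupeol 80. Lupeol 50 replicates 2 and 3, where PLIN2 was highest, held the lowest DGAT2. The log2 fold change of DGAT2 at lupeol 50 was -0.28 ± 0.15 (edgeR, adjusted p = 0.47), with -0.48 without lupeol 50 replicate 1 (adjusted p = 0.092) and -0.15 without replicate 2 (adjusted p = 0.93), and at lupeol 80 it was -0.16 ± 0.15 (edgeR, adjusted p = 0.60). DGAT1 stood at -0.12 ± 0.11 at lupeol 50 and -0.05 ± 0.11 at lupeol 80 (edgeR, adjusted p = 0.71 and 0.84). Per kilobase, DGAT1 was 4.08 to 6.48 times as high as DGAT2 in every library. These ratios depend on the deposited lengths, 4131 bases for DGAT1 and 7904 for DGAT2. HSF1, on the opposite strand, overlaps 3.36% of DGAT1's exon bases and had a mean of 4861 counts, so reads there cannot be told apart if strand was not used in counting.

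PNPLA2, the lipase that takes the first fatty acid off stored triglyceride, had 99.6, 101.5 and 78.6 CPM in controls 1, A and B. It had 89.6, 81.3 and 83.2 CPM at lupeol 50 and 63.1, 79.0 and 82.0 CPM at lupeol 80. Control B lay among the treated libraries, and lupeol 80 replicate 1 was the lowest of all. The log2 fold change at lupeol 80 was -0.32 ± 0.13 with an interval of -0.59 to -0.05 (edgeR, adjusted p = 0.19, unadjusted p = 0.024). Without lupeol 80 replicate 1 it was -0.21 ± 0.12 (edgeR, adjusted p = 0.36). At lupeol 50 against control it was -0.14 ± 0.13 (edgeR, adjusted p = 0.70).

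Of the burning genes, CPT1A, which loads fatty acids onto carnitine and sets the rate of their entry into mitochondria, had 226, 250.0 and 158 CPM in controls 1, A and B. It had 205, 181 and 201 CPM at lupeol 50 and 213, 216 and 193 CPM at lupeol 80. Control alone spanned a wider range than both doses together. The log2 fold change was -0.11 ± 0.14 at lupeol 50 (edgeR, adjusted p = 0.79) and -0.03 ± 0.14 at lupeol 80 (edgeR, adjusted p = 0.94).

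ACADVL catalyses the first step of beta-oxidation for very long chains, and HADHA carries later steps as part of the trifunctional protein. ACADVL had 217, 239 and 204 CPM in controls 1, A and B, 213.5, 213 and 208 CPM at lupeol 50, and 152.5, 205 and 183 CPM at lupeol 80. Lupeol 80 lay wholly below lupeol 50, but its replicate 2 overlapped control B. The log2 fold change at lupeol 80 was -0.29 ± 0.12 with an interval of -0.54 to -0.04 (edgeR, adjusted p = 0.19, unadjusted p = 0.027), and without replicate 1 of that dose it was -0.18 ± 0.10 (edgeR, adjusted p = 0.37). HADHA, the highest of the 10 by its mean over all libraries, had 410.5 to 473 CPM in control, 403 to 442 CPM at lupeol 50 and 398 to 437 CPM at lupeol 80. Its SD of log2 CPM, 0.10, was larger than that of only 4.17% of genes, and its log2 fold changes were -0.11 ± 0.11 at lupeol 50 and -0.13 ± 0.11 at lupeol 80 (edgeR, adjusted p = 0.73 and 0.56). DLG4, on the opposite strand, overlaps 1.75% of ACADVL's exon bases.

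FABP5, a cytosolic carrier of fatty acids encoded on chromosome 8 as DGAT1 is, had 83.2, 88.9 and 105 CPM in controls 1, A and B, 103, 110 and 111 CPM at lupeol 50, and 82.6, 104 and 127.5 CPM at lupeol 80. The lupeol 80 libraries enclosed the whole control range. The log2 fold change was 0.22 ± 0.14 at lupeol 50 (edgeR, adjusted p = 0.54) and 0.18 ± 0.14 at lupeol 80 (edgeR, adjusted p = 0.50). The value at lupeol 80 was 0.33 without lupeol 80 replicate 1 and 0.02 without lupeol 80 replicate 3. Beside PLIN2, it was the only one of the 10 genes above control at either dose. The table lists 16 FABP5 pseudogenes, of which 7 had counts, 496 in all against 26519 for FABP5, so some of its reads may have been split between copies.

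**Figure D4:**
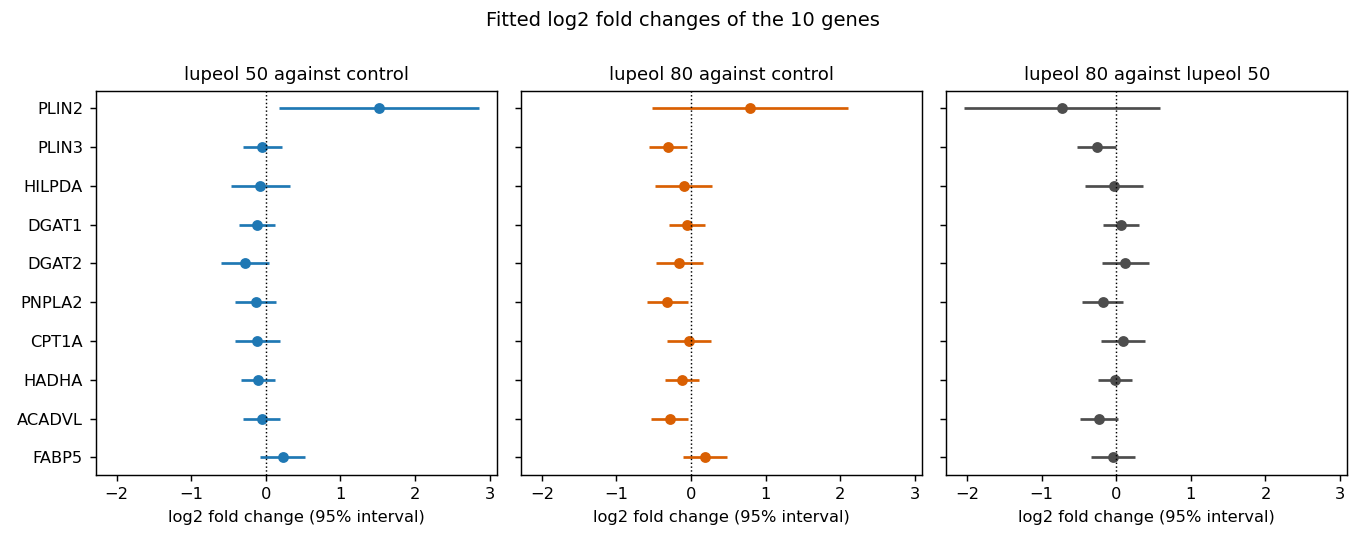
Fitted log2 fold changes of the 10 genes (points, horizontal axis) with 95% intervals (bars), for lupeol 50 against control (left), lupeol 80 against control (middle) and lupeol 80 against lupeol 50 (right). PLIN2 has the largest value against control, 1.52 at lupeol 50 and 0.79 at lupeol 80, and the widest interval, while the other 9 genes lie between -0.32 and 0.22.

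Set side by side, 8 of the 10 genes were below control at lupeol 50 and 8 at lupeol 80, with median log2 fold changes of -0.09 and -0.11. Over all genes tested, 50.5% lay below 0 at lupeol 50 and 48.9% at lupeol 80, with medians of -0.003 and 0.010. Both doses were set against the same 3 control libraries. At an unadjusted p under 0.05 there was 1 of 10 at lupeol 50 (PLIN2) and 3 of 10 at lupeol 80 (PLIN3, PNPLA2 and ACADVL, all lower), where 12.4% and 19.5% of all genes passed. Apart from PLIN2, the 95% intervals of the single genes all lay within folds of 0.66 to 1.43 at lupeol 50 and 0.66 to 1.39 at lupeol 80.

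Between doses, 7 of 10 genes were lower at lupeol 80 than at lupeol 50, with a median of -0.04 (50.0% of all genes were lower). PLIN3 had an unadjusted p under 0.05 (0.048), as had 15.4% of all genes. PLIN3 and ACADVL were the 2 of 10 genes whose groups did not overlap, where 19.0% of all genes did not. No gene of the 10 had groups that did not overlap between a dose and control, against 19.2% of all genes at lupeol 50 and 24.0% at lupeol 80. Leaving out control B and lupeol 80 replicate 1 together, a setting also added after seeing the data, called 2 of the 10 at lupeol 80 against control, where 4.78% of all genes were called. These were PLIN3, lower by a log2 fold change of -0.40 ± 0.10 (edgeR, adjusted p = 0.047), and FABP5, higher by 0.42 ± 0.11 (edgeR, adjusted p = 0.049). Control B was the lowest control for PLIN3 and the highest for FABP5, so leaving it out widened both differences by construction. Lupeol 80 replicate 1 was the lowest of its dose for both genes, so leaving it out widened the difference of FABP5 and narrowed that of PLIN3.

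Levels between genes were compared per kilobase of the deposited gene length, and their order depends on that length. In control, HADHA stood first at 104 ± 8.13 CPM per kb, apart from FABP5 at 48.4 ± 5.83, ACADVL at 45.6 ± 3.70 and PLIN3 at 45.3 ± 7.14 (SD, n = 3). These last 3, then CPT1A at 32.2, PLIN2 at 31.7, DGAT1 at 26.3 and PNPLA2 at 24.3 CPM per kb, each overlapped with the next in the order. DGAT2 at 5.49 and HILPDA at 4.67 CPM per kb stood apart below and overlapped each other. At lupeol 50 PLIN2 came second at 90.75 ± 50.75 CPM per kb, with a range that overlapped those of HADHA and FABP5, and at lupeol 80 it followed HADHA and FABP5 at 54.9 ± 20.2 CPM per kb.

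Over the 9 libraries, which share their groups and scaling, log2 CPM of PLIN2 and DGAT2 had a Pearson r of -0.97 (Spearman -0.92), and PLIN2 and HADHA had -0.80. PLIN3 and PNPLA2 had 0.92, and PNPLA2 and ACADVL had 0.88. Of its 9 pairs with the other genes, PLIN2 had an r above 0 in 2, with FABP5 (0.76) and with ACADVL (0.004, Spearman -0.35). Of the 36 pairs without PLIN2, 29 were above 0. No share over pairs of all genes stands beside these counts, so they are not read as a trait of the genes. These values describe 9 points from 3 groups.

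The genes most like PLIN2 over the 9 libraries, among 10777 genes that averaged 5 CPM or more, were NFX1 (r = 0.98), FAM114A1 (0.98) and RGS2 (0.98). RGS2, a regulator of G-protein signalling, had 4.71, 4.28 and 7.25 CPM in controls 1, A and B, 5.98, 12.0 and 10.05 CPM at lupeol 50 and 5.30, 7.31 and 8.10 CPM at lupeol 80. As in PLIN2, replicates 2 and 3 of lupeol 50 were highest, which follows from picking RGS2 by its r with PLIN2 over these libraries. The nearest to DGAT2 were PLB1, VIT and RASSF2 (r = 0.96 to 0.97), and to FABP5 they were SDHB, DAP3 and RPS6 (r = 0.97 to 0.98).

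In the wider pathway, 116 further genes were listed, with earlier results of these data known, and 97 passed the filter. The shares of these genes beside those of all genes are therefore a description and no independent test. By edgeR none was called at lupeol 50, 1 was called at lupeol 80 against control (1.03% of those tested, beside 1.14% of all genes) and none between doses. At an unadjusted p under 0.05 there were 25 at lupeol 50 (25.8%, beside 12.4% of all genes), 27 at lupeol 80 (27.8%, beside 19.5%) and 18 between doses (18.6%, beside 15.4%). DESeq2 called 6 at lupeol 50 (6.19%, beside 1.24% of all genes): ACSL1, CD36, FABP4, GPAT3 and LPCAT1 higher and DBI lower. It called 7 at lupeol 80 (7.22%, beside 5.18%): GPAT3 higher, and ACAD9, ACADS, DBI, LPIN3, RXRB and SLC27A3 lower. Between doses it called 4 (4.12%, beside 2.5%): ACSL1, FABP4, G0S2 and LPCAT1, all lower at lupeol 80. With lupeol 50 replicate 1 left out, edgeR called 9 at lupeol 50 (9.28%, beside 2.34% of all genes). With no filter it called 10 of 110 at lupeol 50 (9.09%, beside 1.54% of all genes), 5 at lupeol 80 (4.55%, beside 2.55%) and 5 between doses (4.55%, beside 1.95%). With limma-voom none was called in any comparison. With all 9 libraries and the filter, the gene called by edgeR was GPAT3, which starts triglyceride synthesis by adding the first fatty acid to glycerol phosphate. It rose at lupeol 80, with 3.87, 5.975 and 7.11 CPM in replicates 1 to 3, against 1.86, 2.72 and 2.47 CPM in controls 1, A and B. The log2 fold change was 1.26 ± 0.27 (edgeR, adjusted p = 0.038), and all 3 treated libraries lay above control. At lupeol 50 GPAT3 had 3.95, 6.40 and 5.635 CPM and a log2 fold change of 1.18 ± 0.28 (edgeR, adjusted p = 0.19). At that dose it was called by DESeq2 (adjusted p = 0.015), and by edgeR with no filter (adjusted p = 0.0021) or without lupeol 50 replicate 1 (adjusted p = 0.019). The call at lupeol 80 was lost without any 1 of 6 libraries (controls 1, A and B, lupeol 50 replicate 3, and lupeol 80 replicates 2 and 3, edgeR, adjusted p = 0.056 to 0.20), with limma-voom (adjusted p = 0.075) and with only the groups compared (edgeR, adjusted p = 0.055). Its mean was too low for the stricter filter of 5 CPM.

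Of the 16 genes for droplet coats and assembly, 12 were tested and edgeR called none. LPCAT1, which makes phosphatidylcholine for the droplet surface, had 147, 216 and 217 CPM at lupeol 50, against 87.2, 83.8 and 141 CPM in control (log2 fold change 0.89 ± 0.23, edgeR, adjusted p = 0.21). It was called there by DESeq2 (adjusted p = 0.010), and by edgeR without control B (adjusted p = 0.020) or without lupeol 50 replicate 1 (adjusted p = 0.029). PLIN5, the perilipin of oxidative tissue, had 0.14 to 0.20 CPM at lupeol 80, against 0.30 to 0.93 CPM in control (-1.98 ± 0.62, edgeR, adjusted p = 0.10). Only 131 PLIN5 counts were read in all 9 libraries together, so its levels lie near the floor and this value rests on few reads. HSD17B11, a droplet dehydrogenase, stood at 0.39 ± 0.13 at lupeol 80 (edgeR, adjusted p = 0.11). The droplet proteins PLIN1, CIDEA, CIDEB and CIDEC were below the filter, with CIDEA and CIDEB at 0 in every library. The list's median log2 fold change was 0.20 at lupeol 50 and 0.03 at lupeol 80.

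Among synthesis genes, LPIN3, a phosphatidate phosphatase, stood at -0.48 ± 0.15 at lupeol 50 (edgeR, adjusted p = 0.23). ACSL1, which activates long-chain fatty acids, had 212, 295 and 190 CPM at lupeol 80, against 269, 513 and 381 CPM at lupeol 50 (-0.74 ± 0.25, edgeR, adjusted p = 0.23). The 16 tested members of this list had a median of 0.13 at lupeol 50 and -0.03 at lupeol 80. Among the 11 lipolysis genes edgeR called none with all 9 libraries and the filter. LIPE, hormone-sensitive lipase, had 2.93, 4.80 and 3.32 CPM at lupeol 80, against 6.31, 7.14 and 6.17 CPM in control (-0.83 ± 0.30, edgeR, adjusted p = 0.15). MGLL, which frees the last fatty acid, stood at 0.92 ± 0.32 at lupeol 50 (edgeR, adjusted p = 0.29). G0S2, an inhibitor of PNPLA2, stood at -0.94 ± 0.27 at lupeol 80 against lupeol 50 (edgeR, adjusted p = 0.13). ABHD5, the activator of PNPLA2, stood at 0.38 ± 0.14 in the same comparison (edgeR, adjusted p = 0.23). With no filter edgeR called MGLL higher at lupeol 50 (9.09% of the lipolysis list, beside 1.54% of all genes) and LIPE lower at lupeol 80 (9.09%, beside 2.55%). Between doses it called G0S2 and MGLL lower (18.2%, beside 1.95%). Without lupeol 50 replicate 1 it called MGLL at lupeol 50 (9.09%, beside 2.34%). The medians of the lipolysis list were -0.01 at lupeol 50 and -0.05 at lupeol 80.

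Of 36 further genes of the carnitine shuttle and oxidation, 33 were tested. With all 9 libraries and the filter, edgeR called none in any comparison. Without control B it called ACADS lower at lupeol 80 (3.03%, beside 1.08% of all genes). With no filter it called ACOT1 lower at lupeol 50 (2.78%, beside 1.54%). ACADS, the dehydrogenase of short chains, had 17.6, 16.5 and 17.4 CPM at lupeol 80, against 25.05, 28.8 and 18.9 CPM in control (-0.50 ± 0.15, edgeR, adjusted p = 0.10). ACAD9, needed for assembly of complex I, stood at -0.40 ± 0.12 at lupeol 80 (edgeR, adjusted p = 0.086). The medians of this list were -0.02 at lupeol 50 and -0.03 at lupeol 80, and 17 and 19 of the 33 lay below 0.

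Of the genes of fatty acid uptake and binding, 12 of 17 were tested and edgeR called none with all 9 libraries and the filter. DBI, the acyl-CoA binding protein, had 95.4, 79.2 and 80.75 CPM at lupeol 50, against 146, 136.5 and 105 CPM in control (-0.60 ± 0.13, edgeR, adjusted p = 0.19). It had 93.6, 91.8 and 96.65 CPM at lupeol 80 (-0.46 ± 0.13 from control, edgeR, adjusted p = 0.077), so that both doses lay below every control. DESeq2 called DBI lower at both doses (adjusted p = 0.014 at lupeol 50 and 0.030 at lupeol 80). Without control B edgeR also called DBI lower at both doses (8.33% of those tested, beside 0.774% of all genes at lupeol 50 and 1.08% at lupeol 80). CD36, a fatty acid and scavenger receptor, stood at 0.60 ± 0.16 at lupeol 50 (edgeR, adjusted p = 0.20), with 59.8, 97.5 and 85.3 CPM in its replicates, against 48.4, 50.4 and 61.7 CPM in control. FABP4, a fatty acid carrier that PPARG controls, had 2.23, 6.88 and 6.90 CPM at lupeol 50, against 1.14, 2.69 and 1.12 CPM in control (1.68 ± 0.52, edgeR, adjusted p = 0.25). CD36 and FABP4 were thus highest in the 2 lupeol 50 libraries with the highest PLIN2. Both were named for a small p at lupeol 50 in these same libraries, so the shared order follows in part from that choice. A link between them and PLIN2 was not tested. Of the PPAR list 17 of 19 were tested, and with all 9 libraries and the filter edgeR called none. Its medians were 0.04 at lupeol 50 and 0.02 at lupeol 80, and the receptor partner RXRB stood at -0.37 ± 0.11 at lupeol 80 (edgeR, adjusted p = 0.095). With no filter edgeR called CD36, FABP4 and PPARG higher at lupeol 50 (16.7%, beside 1.54% of all genes). It also called PPARG higher at lupeol 80 (5.56%, beside 2.55%). Without lupeol 50 replicate 1 the same genes were called, with 17.6% beside 2.34% at lupeol 50 and 5.88% beside 1.44% at lupeol 80. With limma-voom none was called.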

How the data were processed

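The authors deposited whole-number counts per gene in 1 table for all 9 libraries, with a gene length in bases. The submitters' processing notes name Bowtie 0.12.2 and the mouse build mm8, yet the IDs are human Ensembl genes. Of them, 35993 are in GENCODE release 29 with the same version, each at its GRCh38 position. PLIN3, PNPLA2, HADHA, ACADVL and FABP5 differ from that release in start or end. Its exons gave the overlaps between genes stated above. The counting tool and whether it used strand were not given in the sources used. Sample descriptions gave the groups and doses, also where 1 treatment label at lupeol 50 omits the micro sign. Of 67928 genes, 1 had empty values and was left out. The main test was edgeR 4.0.16 (R 4.3.3): filterByExpr, TMM, robust quasi-likelihood F test with 1 term per group, Benjamini-Hochberg adjustment over 17568 genes, calls under 0.05. Dispersion gave a common coefficient of variation of 0.178 on 6 residual degrees of freedom. SE was taken as |log2 fold change| over the root of F, and 95% intervals from the t distribution. Alternatives were DESeq2 1.42.0, limma-voom (limma 3.58.1), RLE factors, no scaling, no filter, a mean of 5 CPM or more, only the groups compared, and each library left out. The fit was also run on simulated counts, drawn independently for each gene and library. Those held no library spread shared across genes, so that run cannot decide how the fit behaves with the spread seen here. Counting errors cover counting only, since reads carried no molecular identifiers.

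The 10 genes, the gene lists and the naming rule were chosen with earlier results of these data known. From each list the rule takes up to 4 called genes per comparison by smallest p, or otherwise the 2 of smallest unadjusted p, of which a selection is given. For the 3 most variable of the 10 genes it takes the 3 genes of highest Pearson r. A planned comparison of the PLIN2 and PLIN3 proteins was not made. Single values of some listed cell type markers are not reported here.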

Additional observations from a re-analysis of the deposited data

How the results depend on the processing

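None of the 10 genes was called with another tool, scaling or filter, with only the groups compared, or with a single library left out. The number of all genes called moved more. At lupeol 50 against control, 0 genes became 218 with DESeq2, 520 with no filter, 1 with only the groups compared, and 0 to 427 with a library left out. At lupeol 80 against control, 201 became 910 with DESeq2, 106 with limma-voom, 861 with no filter, 124 at a mean of 5 CPM or more, 78 with only the groups compared, and 0 (without control 1) to 386 with a library left out. At lupeol 80 against lupeol 50, 8 became 439 with DESeq2, 2 with limma-voom, 14 with no scaling, 659 with no filter, 5 at a mean of 5 CPM or more, and 1 to 189 with a library left out. For any difference, 41 became 27 with RLE factors, 1423 with no filter, 1 at a mean of 5 CPM or more, and 1 to 654 with a library left out. The cause was not tested.

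A pair of settings was added after seeing the data. Without control B and lupeol 80 replicate 1, 913, 860, 25 and 924 genes were called in the order above, with 2 of the 10 genes (PLIN3 and FABP5) at lupeol 80. Without control B and lupeol 50 replicate 1, 811, 405, 222 and 884 genes were called, with 1 of the 10, PLIN2, at lupeol 50 (log2 fold change 2.17) and 1 in the test of any difference. This last pair was chosen because it lay closest to each other of all libraries of different groups, so the call of PLIN2 rests on that choice.

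Small fold changes of uncalled genes changed sign. Without control B and lupeol 80 replicate 1, HILPDA stood at 0.076 and DGAT1 at 0.0255 at lupeol 80 against control, and HILPDA at 0.0794 and FABP5 at 0.11 at lupeol 80 against lupeol 50. In that comparison HILPDA was 0.125 and HADHA 0.0228 without control B and lupeol 50 replicate 1, HILPDA was 0.0119 and HADHA 0.0237 with no scaling, and HADHA was 0.0019 at a mean of 5 CPM or more. With a library left out, values at lupeol 50 against control ran from -0.16 to 0.0298 for PLIN3, -0.22 to 0.0224 for HILPDA, -0.28 to 0.0301 for CPT1A and -0.10 to 0.0116 for ACADVL. At lupeol 80 against control they ran from -0.16 to 0.0036 for HILPDA, -0.11 to 0.0335 for DGAT1 and -0.19 to 0.11 for CPT1A. At lupeol 80 against lupeol 50 they ran from -0.13 to 0.12 for HILPDA, -0.0169 to 0.33 for DGAT2, -0.0546 to 0.0225 for HADHA and -0.21 to 0.11 for FABP5.

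No paired analysis was possible because the labels give no replicate number within a group. Counting error reached 6.84% for HILPDA and at most 3.57% for the other 9 genes. Ranked by Spearman's rho in place of Pearson's r, 0, 1 and 0 of the 3 genes most like PLIN2, DGAT2 and FABP5 stayed among the top 3. No scaling moved the median of all genes by at most 0.04 on the log2 scale.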
